A study of Brassica juncea with 21 samples.

Results

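Median nectaries of Brassica juncea were compared after and before nectar secretion, to find which transcript levels did not return to where they stood before the flower opened. The comparison set the 3 post-secretory median libraries, taken 12 h after the secretory stage, against the 3 pre-secretory ones, taken 24 h before anthesis, 6 of 21 libraries in the study. The authors deposited 1 value per group for each transcript. The members were therefore all 14390 kept transcripts, each with the difference log2(post-secretory value + 1) minus log2(pre-secretory value + 1). The median secretory group, the 3 groups of lateral nectaries and leaf had no part in that difference, and their levels are given beside it. Nectaries came from plants about 40 days old, grown at 21 °C in 16 h of light and 8 h of darkness, and the labels name no treatment, genotype or accession. The age of the plants that gave the leaf libraries is not given in the labels. Each nectary library held RNA from about 100 hand-dissected nectaries, at most 4 from a flower, pooled from a separate set of plants. The labels call the tissue the medial nectary and the table the median nectary.

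Floral nectaries of mustards are small glands at the base of the stamens that import sucrose, store part of it as starch before the flower opens, and release a sugar solution at anthesis. In Arabidopsis, sucrose leaves the nectary cell through the transporter SWEET9 and is split outside it by the cell wall invertase CWINV4. Plant tissues whose task is over commonly enter senescence, in which NAC transcription factors switch on proteases, nucleases and transporters, and the released nitrogen and sugar are exported.

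Values are the authors' normalized scores, whole numbers with 1 value per group. With a single value per group, replicate spread is unknown, so every difference below is a description without a test. Depth per library is unknown too. "Higher" and "lower" mean a difference of at least 2-fold between group values, after 1 is added to each, which understates the fold of low genes. The 2 columns were of similar scale, with a median transcript at 180 in post-secretory and 175 in pre-secretory median nectaries and a 75th percentile of 482 and 489.75. Levels of different genes are not corrected for transcript length. Apart from ranks within a column and the shares and sums given for lists, they are not compared with each other. Because whole glands were extracted, fewer cells of a type and less RNA per cell cannot be told apart. CRC, the YABBY factor required for nectary formation in Arabidopsis, was listed at 10577 and 58387 in post-secretory and pre-secretory median nectaries against 92 in leaf, so the tissue carried its defining marker.

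After secretion 2850 of 14390 transcripts (19.8%) were higher and 3131 (21.8%) lower than before it, while 8409 (58.4%) stayed within 2-fold. The counts given below for gene lists are to be read beside these shares of all transcripts. The largest differences lay mostly on the higher side. At least 16-fold higher were 627 transcripts and at least 16-fold lower 114, and at 64-fold the counts were 230 and 40. Many of the higher transcripts were nearly absent before anthesis: 700 of the 2850 had a pre-secretory value under 10, whereas 249 of the 3131 lower ones had a post-secretory value under 10. Around the threshold, 542 transcripts had an absolute log2 difference from 1 to under 1.1 and 518 one from 0.9 to under 1. The median difference of all transcripts was −0.07. Of the 10 largest differences upward, 2 belonged to transcripts without a described function: LOC103867173 was listed at 5815 after and at 0 before secretion, and LOC103873840 at 5540 and 3 (10.44).

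**Figure D1:**
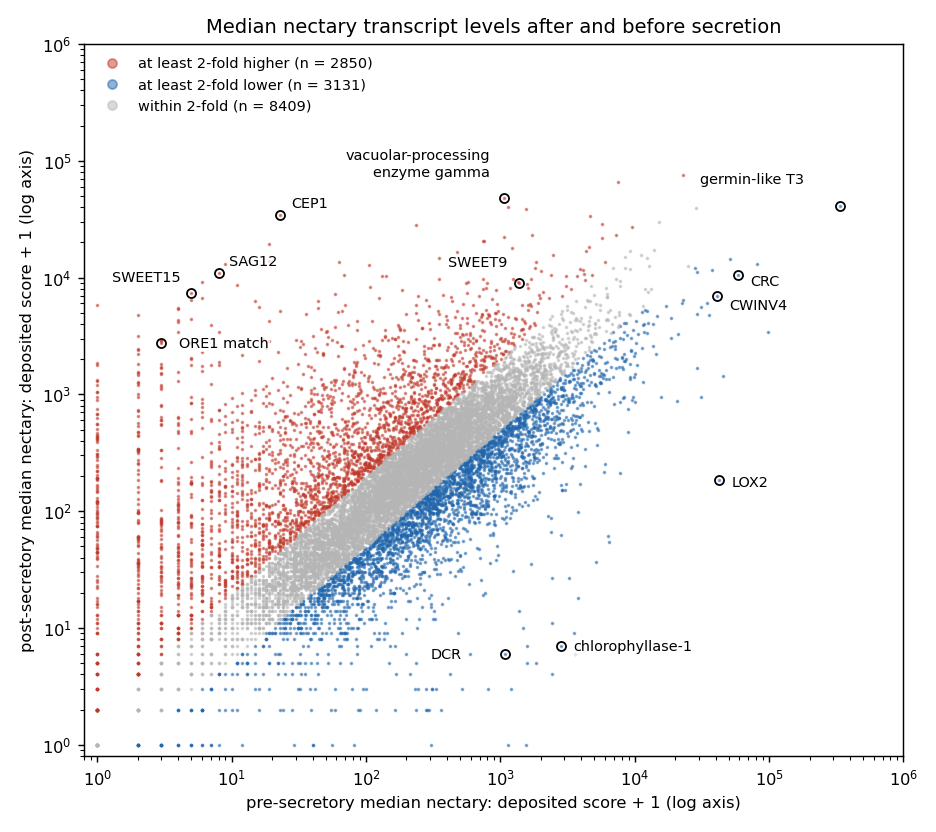
Each point is 1 of 14390 transcripts, with its pre-secretory score plus 1 on the horizontal and its post-secretory score plus 1 on the vertical log axis. Transcripts at least 2-fold higher (red, 2850) spread far above the diagonal from very low pre-secretory scores, such as SAG12 at 10991 against 7, while lower ones (blue, 3131) include LOX2 at 185 against 42550.

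Senescence genes were higher by large amounts. Of 9 measured transcripts on the senescence list, 7 were higher, none was lower, and the median difference was 6.96. SAG12 (LOC103853666, product ervatamin-B), a cysteine protease that marks senescing leaf cells, was listed at 10991 in post-secretory against 7 in pre-secretory median nectaries (log2 difference 10.42) and at 20 during secretion. The Arabidopsis gene it matches lies on chromosome 5 from 18613300 to 18614759, forward strand, in coordinates for which the table names no build. NAP (LOC103831344), a NAC factor that promotes leaf senescence, was listed at 1522 against 2 (8.99) and at 16 during secretion. The match of ORE1 (LOC103863903, product NAC100), another senescence NAC factor, was listed at 2773 against 2 (9.85) and at 24 during secretion. For these 3 genes the secretory value was nearer to the pre-secretory than to the post-secretory one, on the log2 scale as well. ANAC055 (LOC103869914) was listed at 1569 against 3 and ANAC019 (LOC103871173) at 5487 against 43, and ANAC019 already stood at 1329 during secretion. A cytosolic glutamine synthetase of the GLN1;1 type (LOC103863734), which makes glutamine for nitrogen export, was listed at 4543 against 796 (2.51). The 2 members within 2-fold were SAG101 (88 against 95) and GDH2 (1984 against 1394).

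Papain-type proteases and nucleases were mostly higher too. Of 13 transcripts named as papain-type cysteine endopeptidases, a list chosen after its values were seen, 12 were higher and 1 lower, with a median difference of 2.95. Together they made up 2.29% of the post-secretory column, 0.246% of the pre-secretory one and 0.29% of the secretory one. CEP1 (LOC103858440), a KDEL-tailed endopeptidase known from programmed cell death in the Arabidopsis tapetum, was listed at 34470 against 22 (10.55), and its relative CEP2 (LOC103873155) at 12952 against 8 (10.49). RD21a (LOC103827997), a vacuolar cysteine protease, was listed at 65789 against 7487 (3.14) and aleurain (LOC103845456) at 6939 against 688 (3.33). The lower member was a probable cysteine proteinase (LOC103837282, 435 against 1141). Vacuolar-processing enzyme gamma (LOC103850260), which activates other vacuolar proteases, was listed at 47735 against 1068 (5.48), while the beta isozyme (LOC103838040) was lower, at 1284 against 3245 (−1.34). Metacaspase-5 (LOC103853184), a cysteine protease of another family, was listed at 475 against 9 (5.57).

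Among 5 named ribonucleases and endonucleases, also listed after their values were seen, 4 were higher and none lower. RNS1-type ribonuclease 1 (LOC103853966) was listed at 2410 against 1 (10.24), ribonuclease 3 (LOC103829206) at 4159 against 3 (10.02) and an endonuclease 1-like transcript (LOC103843249) at 1815 against 2 (9.24). Ribonuclease 2 (LOC103863667) was within 2-fold, at 2611 against 2030.

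Autophagy, the delivery of cell contents to the vacuole, was higher by smaller amounts. Of 27 transcripts named for autophagy, 18 were higher and none was lower, with a median of 1.38. ATG8 proteins coat the forming autophagosome, and ATG8e (LOC103858161) was listed at 2629 against 94 (4.79), ATG8h (LOC103859157) at 828 against 55 (3.89) and ATG8a (LOC103861273) at 849 against 16 (5.64). ATG7 (LOC103853668), the activating enzyme of that coat, was listed at 3710 against 258 (3.84). Both transcripts matched to the cargo receptor NBR1 were within 2-fold, with differences of 0.22 and 0.60.

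Chlorophyll breakdown genes were also higher, 6 of 7, with a median of 1.65. STAY-GREEN 1, which removes magnesium from chlorophyll, was listed at 3165 against 138 (LOC103861346, 4.51) and at 1221 against 65 (LOC103860469, 4.21). Neither copy was elevated during secretion, at 150 and 40. PPH (LOC103856032), pheophytinase, was listed at 1021 against 225 (2.18), PAO (LOC103873062), pheophorbide a oxygenase, at 3724 against 1219 (1.61) and NYC1 (LOC103833353), chlorophyll b reductase, at 8409 against 3073 (1.45). The lower member was RCCR (LOC103862886), the next enzyme after PAO, at 128 against 290 (−1.17). Chlorophyllase-1 (LOC103872768), an esterase that is not on this list, was listed at 6 against 2830 (−8.66).

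**Figure D2:**
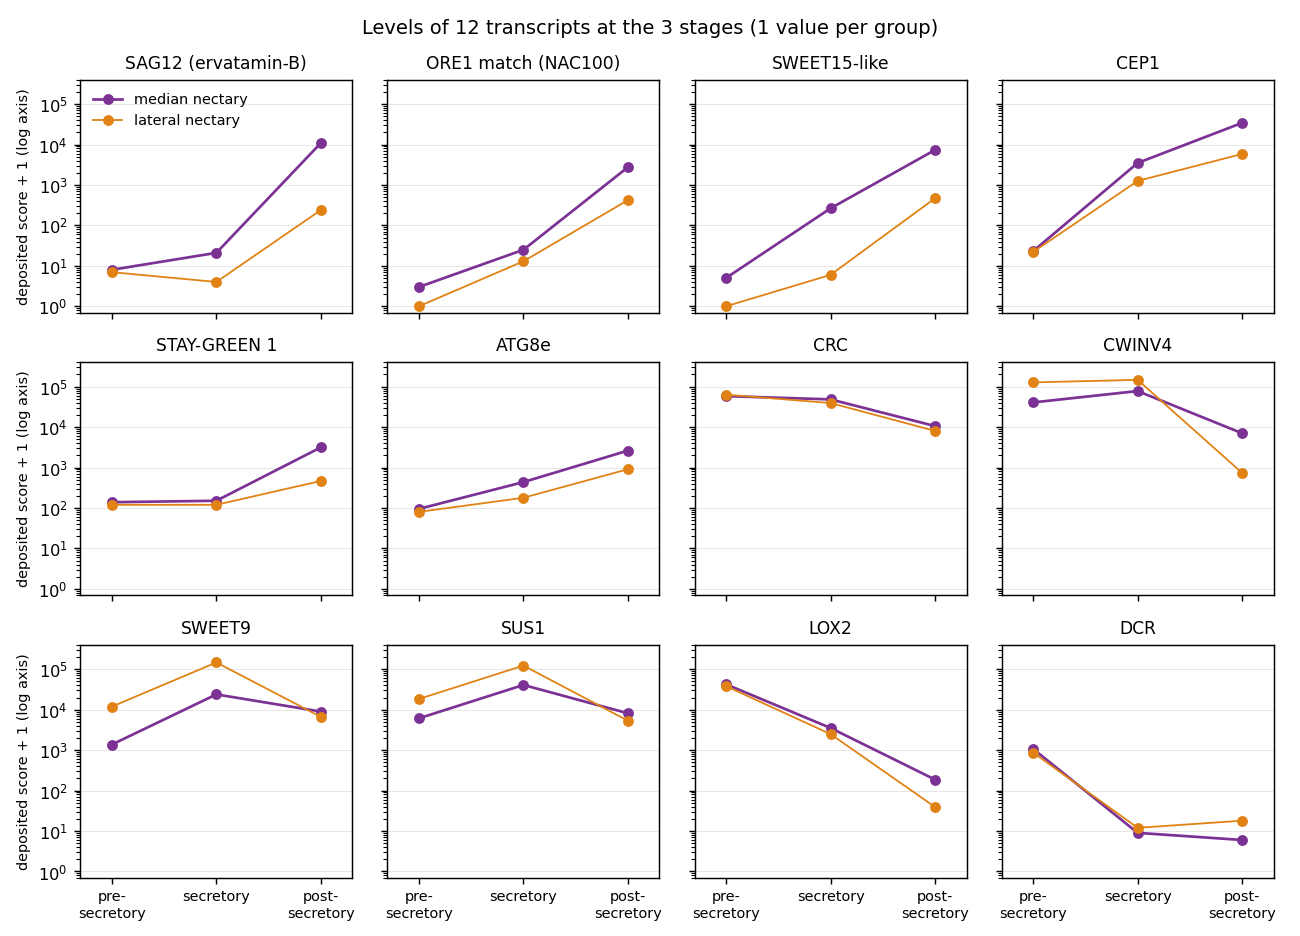
Scores plus 1 of 12 transcripts on a log axis at the 3 stages, in median (purple) and lateral (orange) nectaries, 1 value per group. SAG12, the ORE1 match and STAY-GREEN 1 have their main step between the secretory and post-secretory stages (10991, 2773 and 3165 after secretion in median nectaries), SUS1 peaks in the secretory stage and is close to its pre-secretory level after it (8116 against 6105), and LOX2 and DCR are lower at each later stage in median nectaries.

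NAC, WRKY and homeobox-leucine zipper factors were mostly higher. Of 40 NAC transcripts 33 were higher and none lower (median 2.63), and of 33 WRKY transcripts 24 were higher and none lower (median 2.54), though 2 WRKY transcripts were lower after quantile normalization. A NAC67-like factor (LOC103850060) was listed at 4365 against 3 (10.09) and at 286 during secretion. WRKY28 was listed at 13609 against 62 (7.76). A probable WRKY57 (LOC103852570) was listed at 2902 against 29 (6.60), and a transcript named WRKY14 (LOC103849604) at 921 against 5 (7.26). The homeobox-leucine zipper factor ATHB-40 (LOC103866178) was listed at 5401 against 3 (10.40), and ATHB-7 (LOC103866443), a factor induced by abscisic acid in Arabidopsis, at 1547 against 1. In the 26 homeobox-leucine zipper transcripts, listed after their values were seen, 14 were higher and 1 was lower. Among ethylene response factors 18 of 34 were higher and 8 lower, beside 19.8% and 21.8% of all transcripts.

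Transporters for sugar, nitrogen and water differed widely. Of 17 measured sugar transport and cleavage transcripts 9 were higher and 1 was lower (median 1.01). SWEET15, a sugar exporter also known as SAG29 and induced in Arabidopsis senescence, had a pair of copies at 7387 against 4 (LOC103850848, 10.53) and at 1786 in post-secretory nectaries, where the pre-secretory column listed it at 0 (LOC103846596). ERD6-like 12 (LOC103870826), a sugar transporter-like protein, was listed at 4803 against 1 (11.23). STP1 (LOC103871888), a monosaccharide importer, was listed at 1291 against 102 (3.65) and SWEET1-like (LOC103835747), a glucose carrier, at 23134 against 7257 (1.67). The lower member was CINV1 (LOC103833584), a cytosolic invertase, at 295 against 1045 (−1.82).

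Of 44 nitrogen transporter transcripts 28 were higher and 5 lower, with a median of 1.89. Amino acid permease 2 (LOC103855814), which loads amino acids into the phloem, was listed at 931 against 9 (6.54) and at 10 during secretion. The NRT1/PTR family member 2.13 (LOC103831529), a nitrate transporter that moves nitrate out of old leaves in Arabidopsis, was listed at 3925 against 73 (5.73). The WAT1-related family, transporters listed here after their values were seen, had 14 higher and 1 lower of 16 members. The higher ones include members near 0, such as LOC103854493 at 1 against 0. Of 24 aquaporins 12 were higher and 2 lower: PIP1-1 (LOC103841965) was listed at 1836 against 30 (5.89), TIP4-1 (LOC103864690) at 800 against 10 (6.19) and PIP2-1 (LOC103841267) at 9686 against 746 (3.70).

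The genes of nectar production itself did not move together. The nectary list of 15 transcripts had 6 higher and 8 lower members and a median of −1.55. CWINV4 (LOC103865521) was listed at 7021 in post-secretory against 40741 in pre-secretory nectaries (−2.54) and at 77852 during secretion. A second CWINV4-like transcript (LOC103857608), without an Arabidopsis match, was listed at 44 against 478 (−3.41). CRC (LOC103831319) had a difference of −2.46. PIN6 (LOC103832163), an auxin carrier tied to nectar output in Arabidopsis, was listed at 2138 against 9790 (−2.19), with 26085 during secretion. CWINV4, CRC and PIN6 ended below the level from which they had started.

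SWEET9 (LOC103857843) did the reverse, at 8959 against 1367 (2.71), with 23865 during secretion. MYB57 (LOC103870993), a jasmonate-regulated floral MYB factor, was likewise higher, at 2041 against 622 (1.71), with 6976 during secretion. Its relative MYB21 was lower in both copies, at 3927 against 11536 (LOC103875192, −1.55) and 286 against 3450 (LOC103837005, −3.59). JMT, which methylates jasmonic acid, had 1 copy in each position: LOC103872765 was lower at 4803 against 35658 (−2.89), LOC103835835 was within 2-fold at 5047 against 6339, and LOC103829478 was higher at 13619 against 5968 (1.19). SPS1F, a sucrose phosphate synthase, was lower in both copies (differences −1.91 and −1.59), while SPS2F (LOC103874391) and SPS4F (LOC103853568) were higher, at 535 against 78 and 234 against 23. SUS1 (LOC103845641), a sucrose synthase, was within 2-fold at 8116 against 6105 (0.41), after 40835 in secretory nectaries.

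Pectin-modifying enzymes differed in both directions, more of them higher than lower. Of 47 pectin-modifying enzymes 27 were higher and 7 lower, with a median of 2.91. Pectinesterase 17 (LOC103866866) was listed at 9142 against 5 (10.57), pectinesterase 16 (LOC103866037) at 6479 against 4 (10.34) and an exopolygalacturonase (LOC103860974) at 1713 against 2 (9.16). Pollen markers moved the same way. All 4 measured pollen marker transcripts, of 3 of the 12 genes on the list, were higher: their summed level was 9677 in post-secretory and 1123 in pre-secretory median nectaries, 6110 in secretory ones and 176 in leaf. AGP6 (LOC103858897), a pollen arabinogalactan protein, was listed at 1273 against 54 (4.53), and both VGD1 pectinesterase transcripts at 2998 against 164 and 163. ACA9 (LOC103859893), a calcium-transporting ATPase, differed less, at 2408 against 742 (1.70), with 2747 during secretion. Of the 47 pectin enzymes, 17 had a difference from 4 to 5, as had 3 of the 4 pollen markers and 274 of all 14390 transcripts, and the part of pollen in these results was not tested. Without the 2 members shared with the pollen list the pectin enzyme median was 2.09, and with a pseudocount of 10 it was 1.54. Other members with a difference from 4 to 5 stayed in, such as VGDH2 (LOC103862797) at 5708 against 294 (4.27). No pollen marker was at 0 in a median nectary column. The only measured tapetum marker was a chalcone synthase-like match of LAP5, at 3 against 1, and at 2 against 7 in lateral nectaries.

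Among 6 transcripts named as inhibitors of pectin enzymes, set apart after their values were seen, 3 were higher and 3 lower. A polygalacturonase inhibitor 2-like transcript (LOC103855709), of a family that blocks fungal polygalacturonases, was listed at 60 against 6366 (−6.71). Xyloglucan endotransglucosylases/hydrolases, which cut and rejoin wall xyloglucan, had 9 higher and 1 lower of 14 members. An XTH24-like transcript (LOC103834679) was listed at 38316 against 1559 (4.62). Expansins, which loosen growing walls, were divided, 5 of 10 higher and 3 lower: expansin-A15 (LOC103853964) was listed at 210 against 7737 (−5.20) and expansin-B5 (EXPB5) at 360 against 18 (4.25).

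The 10 largest differences downward belonged to transcripts of several kinds. They included an aspartic protease-like transcript (LOC103847097) at 0 after and 1548 before secretion, a putative cell wall protein (LOC103842578) at 0 and 1137, a GDSL lipase (LOC103839650) at 2 and 1189 (−8.63) and a myrosinase-binding protein (LOC103869757) at 5 and 3561 (−9.21). Another was a match of the beta-glucosidase BGLU18, which frees abscisic acid from its glucose ester (LOC103868505), at 3 and 2414 (−9.24). Their secretory values were 0, 6, 0, 8 and 3, so these transcripts were already near 0 during secretion. Besides chlorophyllase-1, given above, the others were a second aspartic protease-like transcript (LOC103841353) at 8 and 3532 (−8.62), a transcript named acanthoscurrin-1 (LOC103843221) at 4 and 1852 (−8.53), an ABC transporter (LOC103867761) at 4 and 1584 (−8.31) and a myrosinase-binding protein (LOC103840046) at 0 and 304. Of all 10 myrosinase-binding transcripts, listed after their values were seen, 5 were lower and 1 was higher.

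Of 15 cuticle and wax transcripts 11 were lower and 3 higher, with a median of −1.61. DCR (LOC103854880), an acyltransferase of cutin synthesis, was listed at 5 against 1074 (−7.49). SHN1 (LOC103842907, product WIN1), an activator of wax and cutin genes, was listed at 62 against 2841 (−5.50), and CER1 (LOC103843834), of alkane synthesis, at 254 against 6043 (−4.57). MYB16 (LOC103846421), also a cuticle regulator in Arabidopsis, was on the other side, at 1319 against 59 (4.46).

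Of 26 jasmonate transcripts 12 were lower and 1 was higher, with a median of −0.62. LOX2 (LOC103830993), a plastid lipoxygenase that starts jasmonate synthesis, was listed at 185 against 42550 (−7.84) and at 3524 during secretion. A second LOX2 transcript (LOC103830390) was listed at 26 against 3265 (−6.92). The storage protein VSP1 (LOC103854787, product VSP2-like), a jasmonate-induced gene, was listed at 9 against 1468 (−7.20), and OPR3 (LOC103860353), of jasmonate synthesis, at 355 against 1412 (−1.99). The repressor JAZ9 (LOC103852676) was listed at 952 against 9780 (−3.36). MYC2 (LOC103874758), the central jasmonate factor, was within 2-fold at 1141 against 1004, as was the receptor COI1 in both copies.

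Respiratory chain and organelle ribosomal transcripts were mostly lower. Of 89 transcripts named as subunits or assembly factors of the mitochondrial respiratory chain, a list chosen after its values were seen, 84 were lower and none was higher. Their median difference was −2.04, the range ran from −2.79 to 0, and their share was 0.458% of the post-secretory, 1.75% of the pre-secretory and 0.756% of the secretory column. The mitochondrial ATP synthase beta subunit (LOC103847184) was listed at 493 against 3369 (−2.77). AOX3 (LOC103874740), an alternative oxidase that bypasses part of the chain, was on the opposite side: it was listed at 1845 after secretion and at 0 before it. Transcripts with names of glycolytic enzymes, plastid isoforms included, were also listed after their values were seen. They were lower in 33 of 46 cases and higher in 3, with a median of −1.55. Among the lower ones, the plastid GAPA1 (LOC103875281, −2.04) and GAPB (LOC103833307, −1.31) are counted on the photosynthesis list too.

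Ribosomal protein transcripts of chloroplast and mitochondrial ribosomes were lower in 71 of 76 cases, with a median of −2.39. The largest difference was that of plastid L12-1 (LOC103875187), at 151 against 3040 (−4.32). Of 251 cytosolic ribosomal protein transcripts 145 were lower and 4 higher, with a median of −1.05, and 107 were lower once all columns were brought to one sum. Their summed score was 98966 after and 200159 before secretion, and 35859 in the secretory column. Of the 4 higher ones, 3 were L18a-like proteins, and the other was a mitochondrial L2 protein (LOC103833201) that carries a 60S name and is on both ribosomal lists.

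Of 40 photosynthesis transcripts 21 were lower and none was higher, with a median of −1.05. That median lay close to the 2-fold cut, so the count can shift with the scaling of the columns. The Rubisco small subunit RBCS1B (LOC103863779) was listed at 14441 against 51201 (−1.83), sedoheptulose bisphosphatase (LOC103841487) at 498 against 1866 (−1.90) and a plastid fructose-bisphosphate aldolase (LOC103835152) at 1282 against 5494 (−2.10). Both Rubisco activase transcripts were within 2-fold. Starch synthesis was lower in 6 of 9 cases and higher in 1 (median −1.73): granule-bound starch synthase GBSS1 (LOC103874772) was listed at 378 against 1745 (−2.20) and APS1 (LOC103828545), the small subunit of ADP-glucose pyrophosphorylase, at 915 against 3039 (−1.73). The higher member was the branching enzyme SBE2.1 (LOC103867285), at 1492 against 532 (1.49). Among 12 starch breakdown transcripts 4 were lower and 2 higher. BAM1 (LOC103828653), the beta-amylase active in guard cells and under stress in Arabidopsis, was listed at 10749 against 4170 (1.37), and the plastid phosphorylase PHS1 (LOC103875081) at 62 against 882 (−3.81).

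**Figure D3:**
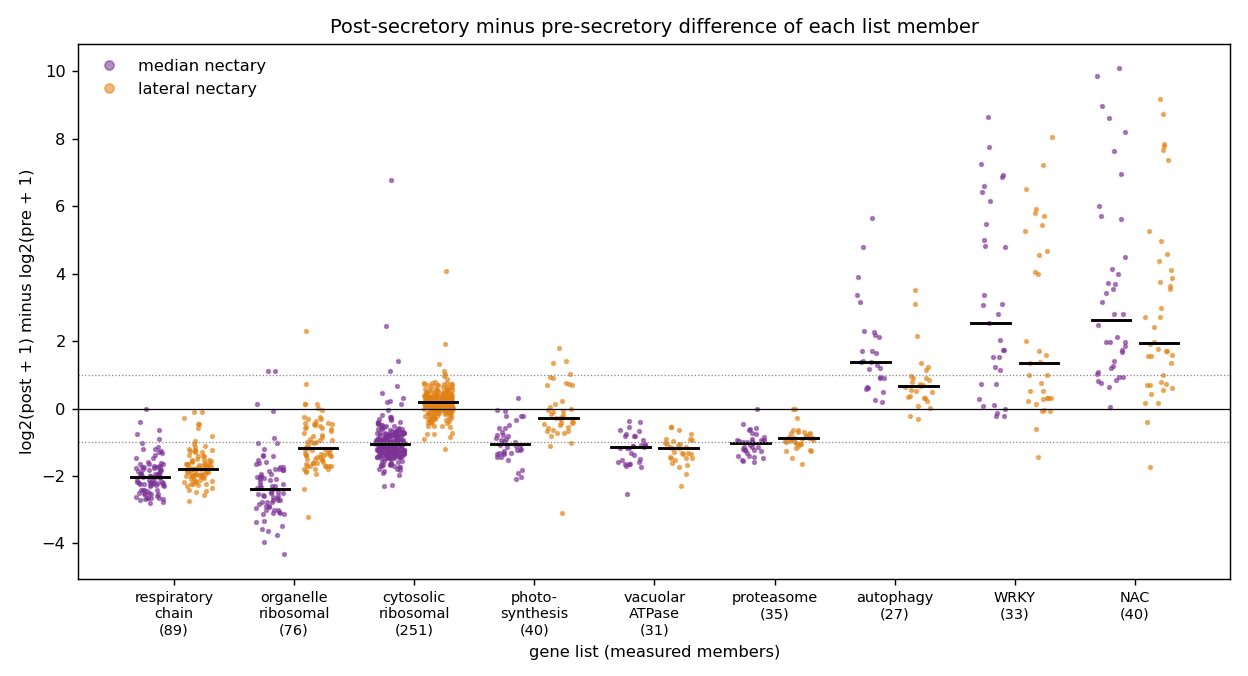
Each point is 1 list member, its vertical position the log2 difference between post-secretory and pre-secretory scores, with the median nectary (purple) left of the lateral nectary (orange) and black bars at the list medians. Nearly all respiratory chain members lie below the dotted line at −1 in both nectary types, whereas cytosolic ribosomal members centre at −1.05 in the median and 0.20 in the lateral nectary, and NAC and WRKY members reach above 8.

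The vacuolar proton pump and the proteasome were both on lists chosen after their values were seen. They were lower in 21 of 31 and 18 of 35 cases and higher in none, with medians of −1.13 and −1.02. Both medians lay close to the 2-fold cut, so these counts can shift with the scaling of the columns. Transcripts with histone in their names numbered 51, including the histone chaperone CHZ1 (LOC103829950), and 31 were lower and 3 higher (median −1.20). The lowest by difference was a histone H3.2 transcript (LOC103850326), at 37 against 413 (−3.45). A linker histone H1 (LOC103837838), matched to a drought-induced Arabidopsis gene, stood apart at 3073 against 137 (4.48). Of 8 cell division transcripts 4 were lower and 1 was higher. PCNA2 (LOC103868024), the sliding clamp of DNA polymerase, was listed at 68 against 371 (−2.43) and RNR1 (LOC103835128), which supplies deoxynucleotides, at 448 against 1362 (−1.60). The replication licensing factor MCM5 (LOC103860343) was within 2-fold, at 336 against 575 (−0.77).

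Of 14 abscisic acid transcripts 12 were higher and 2 lower, with a median of 1.75. NCED3 (LOC103870025), the rate-limiting enzyme of abscisic acid synthesis, was listed at 520 against 16 (4.94) and at 29 during secretion. The degrading enzyme CYP707A3 was higher too, at 175 against 4 (LOC103827806, 5.14). Phosphatases that restrain the pathway, ABI1 (LOC103863846) at 4308 against 690 and HAI1 (LOC103845336) at 1401 against 181, had differences of 2.64 and 2.95. The lower pair were the receptor PYL4 (LOC103865662), at 212 against 2088 (−3.29), and RD22 (LOC103874419), at 159 against 1472 (−3.20).

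Of 17 ethylene transcripts 10 were higher and 1 was lower, with a median of 1.05. ACO4 (LOC103844184), an enzyme of the last step of ethylene synthesis, was listed at 2848 against 32 (6.43). ACO1 (LOC103828296) was listed at 385 against 35 (3.42) after a secretory value of 2543. EBF2 (LOC103837087), an F-box protein that removes EIN3 and is itself induced by ethylene, was listed at 1450 against 185 (2.96). EIN2 (LOC103847394), the central signal carrier, was within 2-fold at 874 against 752.

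The gibberellin list was mostly within 2-fold, with 2 of 8 higher and none lower. Its largest difference belonged to the receptor GID1B (LOC103862743), listed at 417 after secretion and at 0 before it. In the auxin list 4 of 9 were higher and 2 lower: the carrier AUX1 (LOC103867136) was listed at 4547 against 1274 (1.83), and IAA19 (LOC103859627), an early auxin response gene, at 16 against 103 (−2.61). GH3.2 (LOC103848751), which conjugates auxin, was listed at 777 against 5 (7.02).

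Of 23 clock transcripts 10 were higher and 2 lower. CCA1 (LOC103866427) was listed at 1397 against 316 (2.14) and LHY (LOC103844616) at 6621 against 1978 (1.74), both morning factors of the clock, and PRR9 (LOC103866432) at 502 against 74 (2.75). By the labels, dissections took place 4 to 8 h past dawn, yet post-secretory flowers were 12 h older than secretory ones, which leaves their hour of harvest unclear. The part of daytime in these values was not tested. Among 6 touch and wound response transcripts 5 were higher and none lower, with ZAT12 (LOC103845403) at 174 against 5 and MPK3 (LOC103873410) at 1293 against 211. The part of handling was not tested either.

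Few of the listed marker genes of other flower cells were among the measured transcripts, so the levels of these cells are poorly covered here. The carpel factor ALC (LOC103829540) was listed at 124 against 1754 (−3.81) and the fruit gene FUL (LOC103860551), a MADS-box factor, at 133 against 23 (2.48). Of 4 vascular transcripts 2 were higher and 1 lower, the phloem loader SUC2 (LOC103840834) standing at 82 against 10 and the sieve-plate callose synthase CALS7 (LOC103844035) at 155 against 466. KAT1 (LOC103827743), a guard cell potassium channel, was listed at 27 against 461 (−4.04). Their part in the results was not tested.

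Some abundant transcripts came back to their starting level. Within 1.2-fold were 2810 of the 14390. SEP1 (LOC103846385), a MADS-box factor of floral organ identity, was listed at 5249 in post-secretory and 5539 in pre-secretory nectaries, with 8790 during secretion. ACX1 (LOC103869185), a peroxisomal oxidase of jasmonate synthesis, was listed at 14757 against 12388, with 27036 during secretion. The cation/H+ antiporter CHX20 type (LOC103863382) was listed at 5860 against 5487, with 28084 during secretion. Floral identity genes as a list had 3 of 13 higher and 3 lower, near the shares of all transcripts (19.8% and 21.8%). AGAMOUS (LOC103856965) was listed at 604 against 3624 (−2.58) and AP2 (LOC103862524) at 2731 against 1137 (1.26). The top transcript of the pre-secretory column, germin-like T3 (LOC103830683), held 4.05% of that column with 339516 and 0.532% of the post-secretory one with 41360 (−3.04). The first rank after secretion was held by an F-box/kelch-repeat transcript (LOC103828338), at 75236 against 22865, which had reached 1477508 in the secretory column.

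Lateral nectaries, measured in other libraries, gave the most similar comparison. It rests on a lateral post-secretory column whose header lacks the normalization mark of the others. There 2445 transcripts (17.0%) were higher and 2060 (14.3%) lower after secretion. Higher in both were 1904, which is 66.8% of those higher in the median and 77.9% of those higher in the lateral nectary. Lower in both were 1617, which is 51.6% of those lower in the median and 78.5% of those lower in the lateral nectary. Higher in median and lower in lateral nectaries were 42 transcripts, and 30 had the opposite pattern. Across the 14390 transcripts, all from the same 12 libraries, the 2 differences had a Pearson's r of 0.83.

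**Figure D4:**
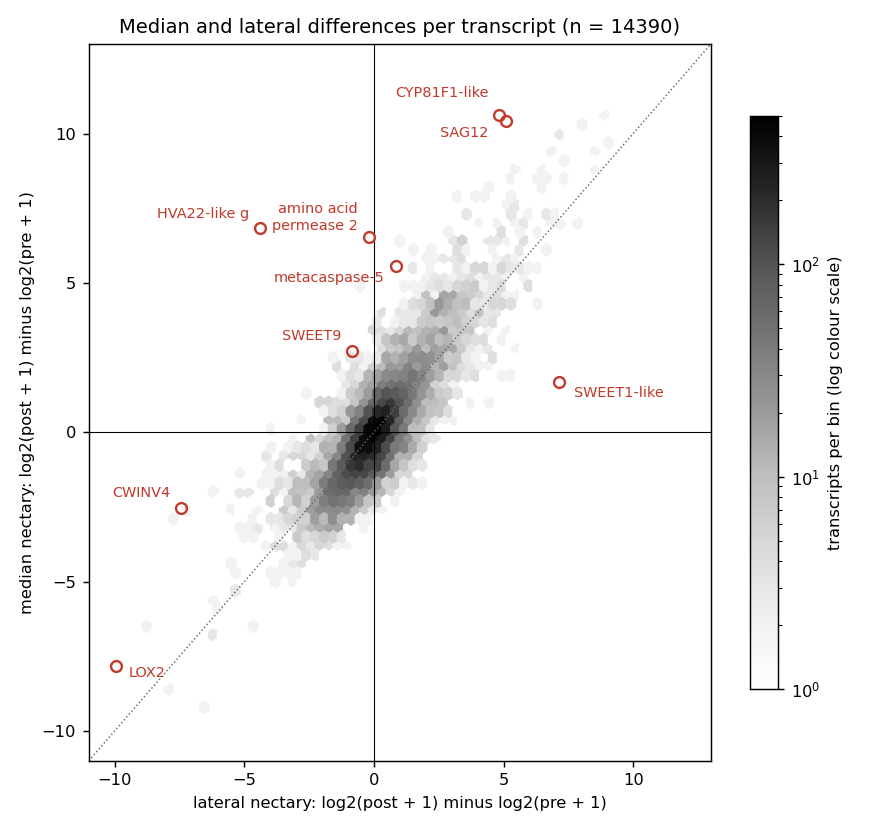
Transcripts are binned by the lateral (horizontal) and median (vertical) log2 difference between post-secretory and pre-secretory scores, with darker bins holding more of the 14390 transcripts and the dotted line marking equal differences. Most follow the diagonal (r = 0.83), while SAG12 lies above it (10.42 and 5.11), amino acid permease 2 near 0 on the lateral axis (6.54 and −0.20) and SWEET1-like below it (1.67 and 7.15).

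The median difference exceeded the lateral one by 2-fold or more for 1667 transcripts (11.6%) and fell short of it by as much for 1891 (13.1%), with no test of any of them. At least 2-fold either way apart were 3558 (24.7%). Of the 9 senescence transcripts, 5 were higher in lateral nectaries, with a median of 5.11. SAG12 was listed at 240 against 6 in lateral nectaries (5.11), NAP at 331 against 1 (7.38) and CEP2 at 352 in post-secretory lateral nectaries, where the pre-secretory column listed it at 0. Chlorophyll breakdown was higher for 6 of 7 transcripts in the median and for 2 of 7 in the lateral nectary, and autophagy for 18 and 6 of 27. Amino acid permease 2 was within 2-fold in lateral nectaries, at 247 against 284. Pollen markers summed to 2984 after and 600 before secretion there, a smaller contrast than in median nectaries.

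SWEET9 was higher in median nectaries but within 2-fold in lateral ones, at 6606 against 11858 (−0.84). CWINV4 was lower in both, and in lateral nectaries it was listed at 730 against 127450 (−7.45). SUS1 was within 2-fold in median and lower in lateral nectaries, at 5307 against 18364. SWEET1-like had the reverse pattern, since it was listed at 4128 against 28 in lateral nectaries (7.15) and was already at 7257 in pre-secretory median ones.

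The nectary types also parted in their protein synthesis genes. Cytosolic ribosomal transcripts were lower for 145 of 251 in the median and for 1 of 251 in the lateral nectary, where 5 were higher and the median was 0.20. The count of 145 was smaller once all columns were brought to one sum, as given above. Photosynthesis transcripts were lower for 21 and 3 of 40, and organelle ribosomal ones for 71 and 43 of 76. Respiratory chain transcripts were lower in both, 84 and 81 of 89. Jasmonate transcripts had medians below 0 in both, of −0.62 in the median and a larger −1.53 in the lateral nectary.

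**Figure D5:**
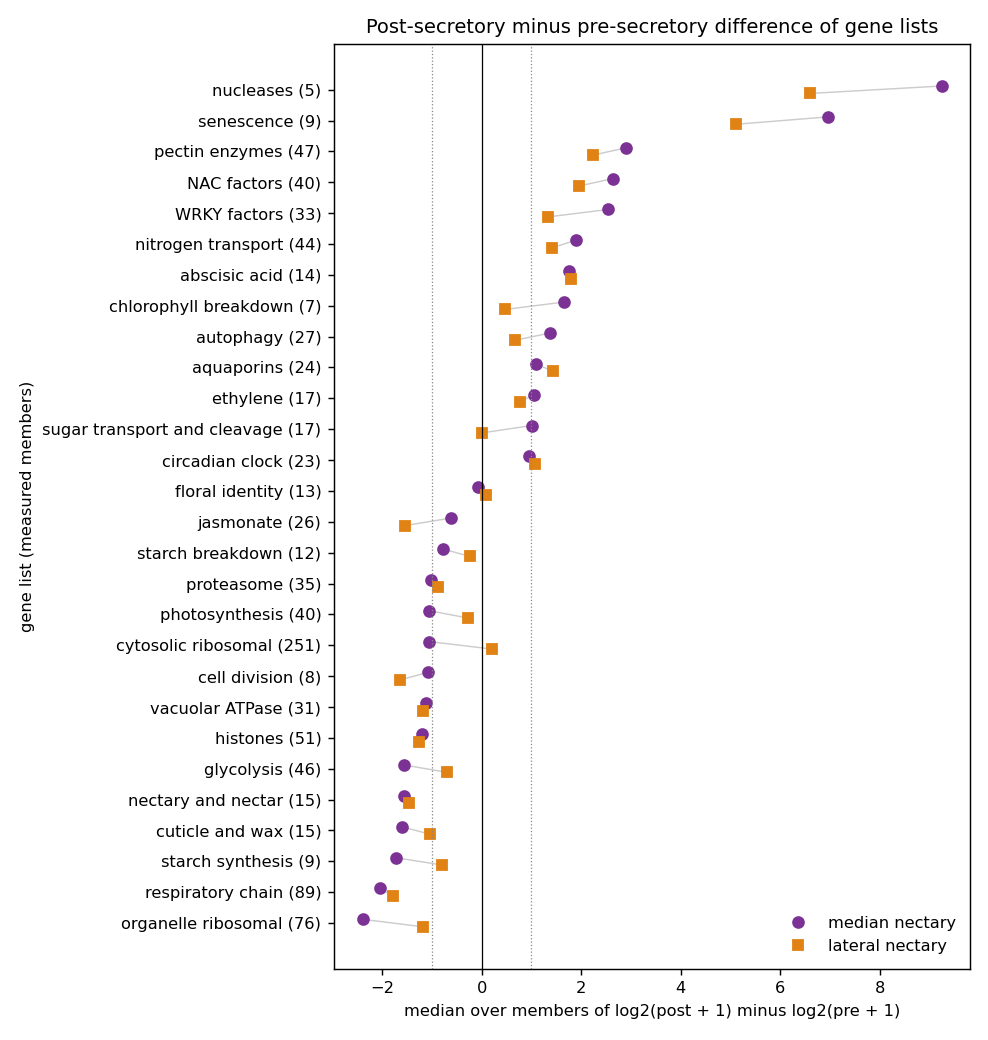
Medians over list members of the log2 difference between post-secretory and pre-secretory scores, with measured members in brackets, the median nectary as purple circles and the lateral nectary as orange squares, dotted lines at 2-fold. Senescence has medians of 6.96 and 5.11 and organelle ribosomal proteins of −2.39 and −1.18, while cytosolic ribosomal proteins have medians on either side of 0 (−1.05 and 0.20).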

How the data were processed

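RNA from 3 libraries per group was sequenced as 50 bp paired-end reads on an Illumina HiSeq after TruSeq v2 preparation, per the labels' protocols. The deposited values are whole-number scores, 1 per group, marked UQN per the file headers and read here as upper-quartile normalized. The aligner, the counting and the step from 3 libraries to 1 value were not stated in the labels or headers. Transcripts are Brassica rapa RefSeq mRNAs, and 9605 of those kept had an Arabidopsis match. Of 14398 transcripts, 8 with a score of 1 or more in fewer than 3 of the 7 columns were left out. Differences used log2 with a pseudocount of 1 (Python 3.11.15, pandas 2.3.3, numpy 2.4.6). The calculation was checked on simulated data.

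Members and gene lists were chosen with earlier results of these data known, and 11 of 64 lists were added after values were seen. Names of inhibitors were then removed from the pectin and protease lists. The rule for named genes took the 10 largest differences each way, with at least 100 in the higher column, up to 4 members per list with the largest differences, and CRC, SWEET9, CWINV4, MYB21, MYB57, PIN6, JMT, SUS1, CCA1, LHY, NAP and SGR1. Not every gene the rule took is printed. Other genes were chosen after their values were seen.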

Additional observations from a re-analysis of the deposited data

Results flagged for a closer look

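Among the transcripts named by rule or picked out after their values were seen, 7 were higher after secretion in 1 nectary type and lower in the other, out of 42 and 30 such transcripts in the whole table. Each rests on 1 value per group, and the difference between nectary types was not tested.

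HVA22-like protein g (LOC103832016) was listed at 226 in post-secretory against 1 in pre-secretory median nectaries (log2 difference 6.83), and at 1 against 41 in lateral ones (−4.39). An XTH24 wall enzyme (LOC103852789) was listed at 2931 against 758 in median nectaries (1.95), and at 351 against 838 in lateral ones (−1.25). A cellulose synthase-like D2 transcript (LOC103846284) was listed at 273 against 120 in median nectaries (1.18), and at 65 against 147 in lateral ones (−1.17). These were higher in the median and lower in the lateral nectary.

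The other direction was taken by a non-specific lipid-transfer protein B (LOC103865675), at 460 against 1325 in median nectaries (−1.52) and 2017 against 824 in lateral ones (1.29). It was shared by HDT2-like (LOC103851458), a histone deacetylase, at 174 against 384 (−1.14) and 894 against 274 (1.70). A subunit 2-like protein of H/ACA ribonucleoprotein (LOC103850685), a part of ribosomal RNA modification, stood at 72 against 168 (−1.21) and 344 against 134 (1.35). The RNA-binding la protein 1 (LOC103850538) stood at 36 against 83 (−1.18) and 195 against 79 (1.29).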

How the results depend on the processing

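No paired analysis was possible because the table holds 1 value per group. Leaving out a replicate and a replicate block were not run for the same reason. Of 3618 alternatives computed, 3403 stayed within 1.5-fold of the value reported, 214 moved further and 1 changed sign. For the 215 named genes, 1349 alternatives stayed within 1.5-fold and 156 moved further, and these are not listed below. With a pseudocount of 10, the pectin enzyme median was 1.54 and the NAC median 1.95, 1 organelle ribosomal transcript was higher and 2 nitrogen transporters were lower. With a pseudocount of 0.1 the pectin median was 3.67. After quantile normalization the pectin median was 1.78, 2 jasmonate transcripts and 1 organelle ribosomal transcript were higher, 2 WRKY transcripts were lower, and the single tapetum marker stood at −0.13. With 1 copy per Arabidopsis locus the medians were 7.79 for senescence, 1.82 for pectin enzymes and 1.75 for WRKY factors. Without the 2 members on the pollen list, an alternative chosen after seeing the data, the pectin median was 2.09. The cause was not tested. Scaling every column to the same total moved the median of all transcripts from −0.07 to 0.03 in median nectaries and from 0.02 to 0.17 in lateral ones. Low scores limit the differences of transcripts near 0, and no value here carries a replicate error.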

Other observations

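Several gene groups did not enter the comparisons above. Of 55 cytochrome P450 transcripts, enzymes of hormone and specialized metabolism, 31 were higher and 11 lower after secretion in median nectaries. A CYP81F1-like transcript (LOC103860541) was listed at 3161 in post-secretory against 1 in pre-secretory nectaries (log2 difference 10.63), and at 85 against 2 in lateral ones. Of 26 UDP-glycosyltransferases 14 were higher and 4 lower. Heat shock transcripts had 16 of 52 higher, 11 lower and a median of 0.01, beside 19.8% higher and 21.8% lower of all transcripts.

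Both flavonoid transcripts were lower: chalcone synthase CHS stood at 191 against 1737 and flavonol synthase FLS1 at 335 against 1152. The terpene synthase TPS03 was listed at 966 against 17. A non-specific lipid-transfer protein 6-like transcript (LOC103859330) was listed at 17 against 3781 (−7.72).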
